A study of Homo sapiens with 4 samples.

Results

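The mitochondrial protein import machinery is described here in 4 RNA-seq libraries of SK-N-BE(2), a neuroblastoma cell line of human origin in which MYCN is amplified. Of the 64252 rows of the gene count table, 44 belong to it. They are the protein-coding genes whose symbol starts with TIMM or TOMM, together with 18 named partners (the metaxins and SAMM50, motor subunits, processing peptidases, the oxidative folding relay, OXA1L, ROMO1 and AGK), with 1 row per symbol. All cells carried a short hairpin RNA: 2 libraries had a control hairpin (shControl, replicates 1 and 2) and 2 had a hairpin against CDK5RAP3 (shCDK5RAP3, replicates 1 and 2), a protein that works with the UFM1 ligase at the endoplasmic reticulum. The series' title asks how CDK5RAP3 relates to the degradation of that organelle by autophagy. Nothing in the labels says that the 2 libraries of a group were separate cultures, so p-values measure only the spread between these libraries.

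Nearly all mitochondrial proteins are encoded in the nucleus, made in the cytosol and imported. Most enter through the TOM complex of the outer membrane. From there the SAM complex inserts outer membrane barrels, the small TIM chaperones carry hydrophobic proteins across the intermembrane space, the TIM22 complex inserts metabolite carriers into the inner membrane, and the TIM23 complex with its ATP-driven motor pulls proteins with a presequence into the matrix, where a peptidase removes the presequence. Neuroblastoma cells with amplified MYCN are known for a high demand on mitochondrial biogenesis. Counts of mRNA say nothing of the amount or activity of these complexes.

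Total counts ran from 28653689 to 30138393 per library. CDK5RAP3 itself fell to 62.1% of its control level (log2 change -0.69, standard error 0.08, edgeR adjusted p = 0.000163). In all, 18775 genes were tested, and 41.5% of them passed: 19.7% were higher and 21.8% lower at an edgeR adjusted p under 0.05, with a median log2 change of -0.00. The 9 noradrenergic marker genes fixed for the line were all expressed, and 8 of 9 passed the test downward. They summed to 7546 and 8069 CPM (counts scaled by library size) under shControl and to 4638 and 4784 CPM under shCDK5RAP3. MYCN made up most of each sum, at 4674 and 4921 CPM under shControl and 2813 and 2881 CPM under shCDK5RAP3. Its log2 change was -0.75 (edgeR adjusted p = 6.74e-06). Fibroblast markers summed to 452 and 471 CPM under shControl and 155 and 166 CPM under shCDK5RAP3, with 4 of 5 past the test downward. The leukocyte, endothelial, epithelial and Schwann cell lists each summed to between 1.05 and 6.88 CPM in every library, with CD3E, CDH1 and SOX10 at 0 in all of them. Transcripts of the mitochondrial genome took 6.84% and 6.57% of the counts under shControl and 6.33% and 6.34% under shCDK5RAP3. The part of these differences in the import results was not tested, and in bulk RNA fewer cells of a type and less RNA per cell cannot be told apart.

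Most tested genes of the import machinery had more mRNA under shCDK5RAP3. Of the 44 genes 42 had enough counts to be tested, and 24 of these rose, 1 fell and 17 did not pass. The 24 rises make up 57.1% of the tested members, where 19.7% of all tested genes rose, and the single fall makes up 2.38%, where 21.8% of all tested genes fell. Among protein-coding genes alone, to which all members belong, 22.7% rose and 26.4% fell. The median log2 change of the 42 was 0.28, against -0.00 for all genes tested and -0.03 for the protein-coding ones. Both shCDK5RAP3 libraries lay above both shControl libraries for all 24 genes that rose and for 3 that did not pass, an arrangement found in 35% of all tested genes. They lay below both for TOMM34, the gene that fell, and for 3 that did not pass, an arrangement found in 36.4%. The rises were moderate: none reached a 2-fold change, and the largest was 1.84-fold. Without shCDK5RAP3 replicate 1, 14 members rose and 1 fell, where 11.3% of all genes rose and 13.2% fell. Without shCDK5RAP3 replicate 2, 8 rose and 1 fell, where 7.86% rose and 11.1% fell. With no filter on low counts, 13 rose and 1 fell, where 5.8% of 33921 genes rose and 7.43% fell; the calls lost were those of GRPEL1, ROMO1, TIMM17A, TIMM21, TIMM22, TIMM44, TIMM8B, TIMMDC1, TOMM22, TOMM6 and TOMM7. The 9 calls that held whichever library was left out are those of TOMM40, TOMM5, TOMM34, TIMM8B, TIMM10B, TIMM29, TIMM50, ROMO1 and PMPCA.

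**Figure D1:**
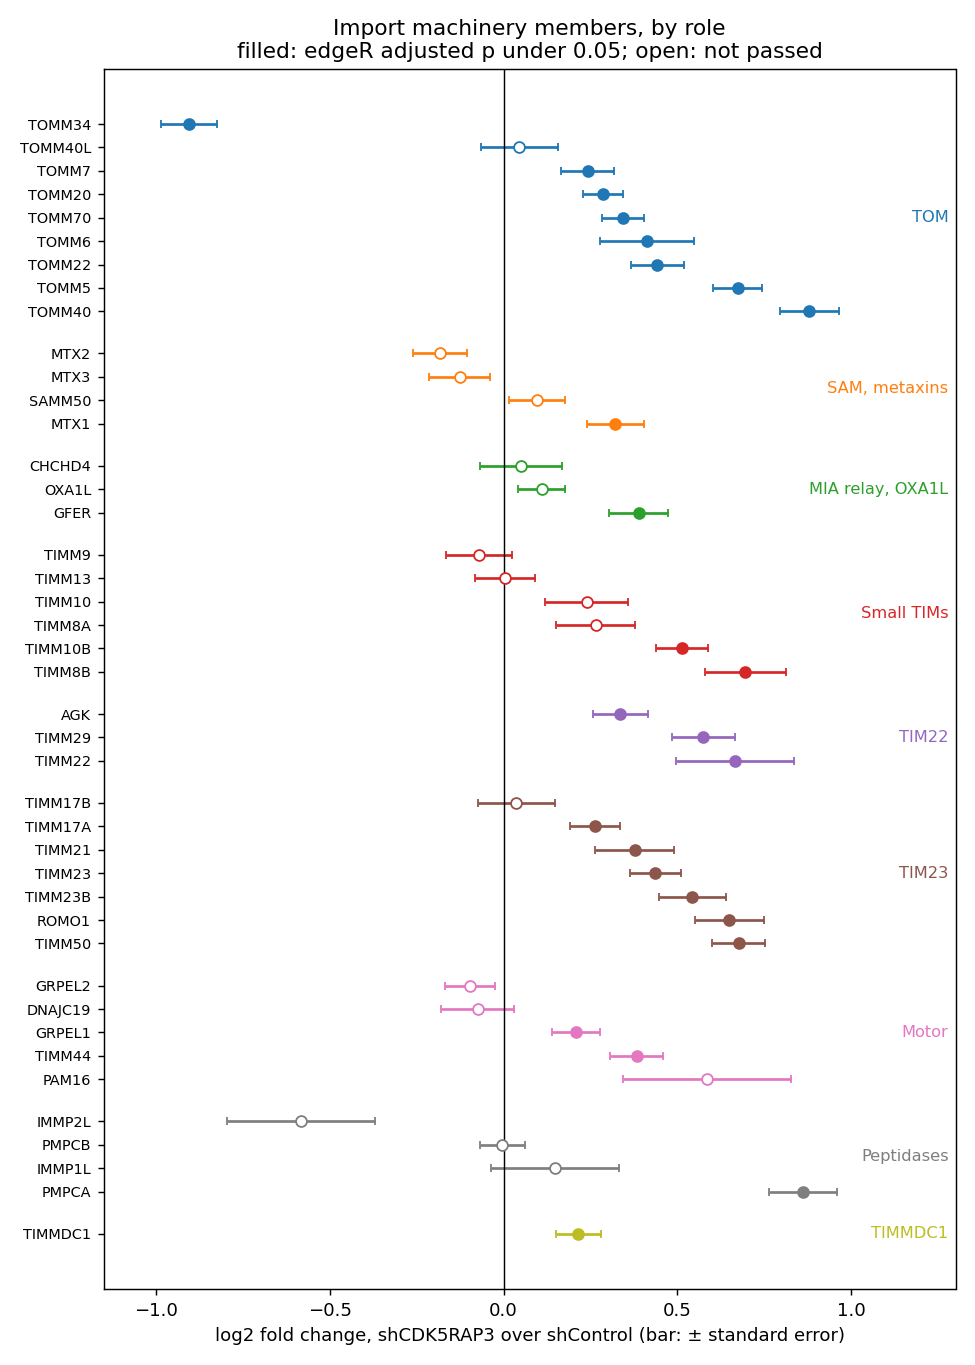
Log2 fold change of the 42 tested import genes (x axis, shCDK5RAP3 over shControl, bars ± standard error), grouped by role on the y axis, with filled points for an edgeR adjusted p under 0.05. The TOM, TIM22 and TIM23 groups lie mostly to the right of 0, TOMM34 at -0.90 is the only filled point on the left, and the SAM group lies on both sides of 0.

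The TOM complex is the general entry gate. Of the 9 tested genes named TOMM, 7 rose, 1 fell and 1 did not pass, with a median log2 change of 0.34. The rises make up 77.8% and the fall 11.1%, against 22.7% and 26.4% of protein-coding genes. The gene that fell, TOMM34, encodes mainly a cytosolic cochaperone. TOMM40 (ENSG00000130204, GRCh38 chromosome 19, 44890569 to 44903689) encodes the barrel that forms the pore. It had 77.6 and 87.8 CPM under shControl and 143 and 161 CPM under shCDK5RAP3. From 82.7 ± 7.15 it rose to 152 ± 12.8 CPM (SD, n = 2 each), a log2 change of 0.88 ± 0.08 (standard error; edgeR adjusted p = 6.84e-05). The groups were far apart, with the lowest shCDK5RAP3 library well above the highest shControl library.

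TOMM5, a small subunit that helps assemble the pore, had 66.8 and 73.2 CPM under shControl and 111 and 112 CPM under shCDK5RAP3. Its log2 change was 0.67 ± 0.07 (standard error; edgeR adjusted p = 0.0001). The other small subunits moved less: TOMM6 rose by 0.41 and TOMM7 by 0.24 on the log2 scale. TOMM6 was uneven within the control group, at 71.6 and 101.7 CPM against 112 and 119 CPM, and its log2 change was 0.18 without shControl replicate 1 (edgeR adjusted p = 0.0859). All annotated exons of TOMM6 also lie in a longer gene on the same strand, AL365205.1, which had a log2 change of -0.03, and with both counted together the log2 change was 0.31 (edgeR adjusted p = 0.0269).

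The receptors of the TOM complex rose together, each by less than the pore. TOMM22, the central receptor, had 102 and 103 CPM under shControl and 130 and 149 CPM under shCDK5RAP3, a log2 change of 0.44 (edgeR adjusted p = 0.00164). TOMM70, which receives carrier proteins from cytosolic chaperones, had 141 and 146 CPM and then 182 in both shCDK5RAP3 libraries, a log2 change of 0.34 (edgeR adjusted p = 0.00192). TOMM20, the receptor for presequences, had 406 CPM in both shControl libraries and then 507 and 484 CPM under shCDK5RAP3, a log2 change of 0.29 (edgeR adjusted p = 0.0036). In all 3 receptors both shCDK5RAP3 libraries lay above both shControl libraries, as in 35% of all tested genes. Leaving out shCDK5RAP3 replicate 2 ended the calls of these receptors (edgeR adjusted p = 0.0543 for TOMM22, 0.0553 for TOMM70, 0.0518 for TOMM20) and those of TOMM6 (0.289) and TOMM7 (0.136). Without shCDK5RAP3 replicate 1 those of TOMM20 (0.0673), TOMM6 (0.141) and TOMM7 (0.182) were lost, and that of TOMM7 also without shControl replicate 2 (0.134).

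TOMM34 (ENSG00000025772, chromosome 20, 44942130 to 44960486) went the other way. Its product is named with the TOM family but is mainly a cytosolic cochaperone that binds HSP70 and HSP90 and helps deliver precursors. It had 84.2 and 81.6 CPM under shControl and 41.4 and 47.2 CPM under shCDK5RAP3. From 82.9 ± 1.80 it fell to 44.3 ± 4.12 CPM (SD, n = 2 each), 53.4% of control, with a log2 change of -0.90 ± 0.08 (standard error; edgeR adjusted p = 4.72e-05). Its log2 change stayed between -1.01 and -0.80 when any single library was left out, and it had the lowest adjusted p of all 42 tested members. With all 4 libraries, IMMP2L also passed downward when scaled by library size alone. With replicate number fitted as a block, IMMP2L and MTX2 both passed downward.

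Of the TOM paralogs, TOMM40L, a second form of the pore protein, did not pass (log2 change 0.05, 24.7, 22.4, 22.6 and 26.0 CPM over shControl 1 and 2 and shCDK5RAP3 1 and 2). TOMM20L, a second form of the presequence receptor, was hardly detected, with 1, 5, 4 and 5 counts in the same order, and was not tested.

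**Figure D2:**
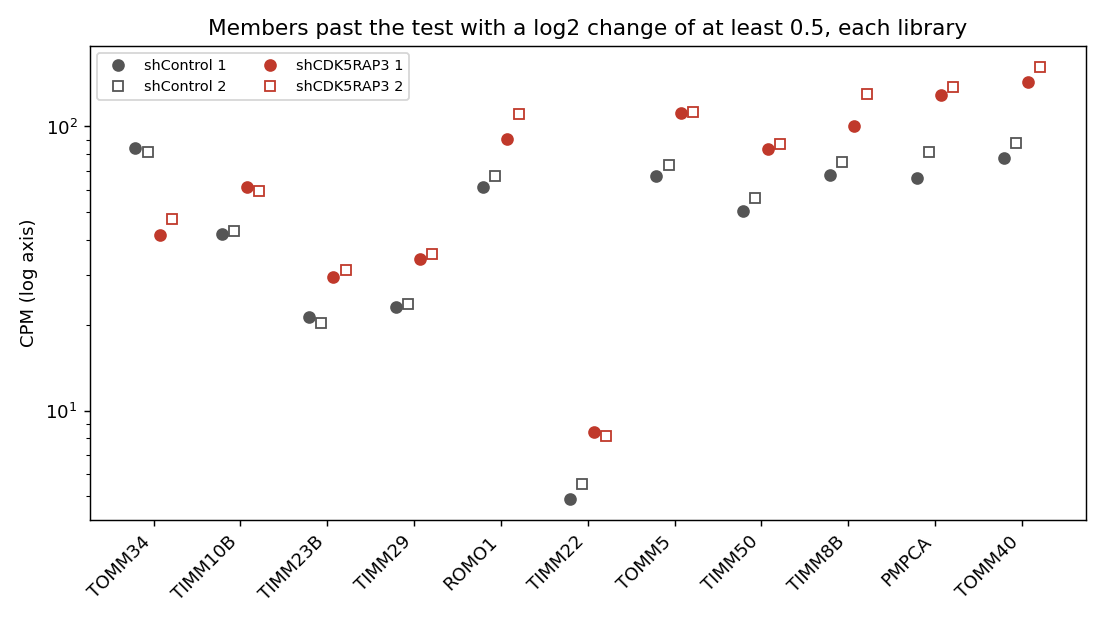
CPM in each of the 4 libraries (y axis, log axis) for the 11 import genes with an edgeR adjusted p under 0.05 and an absolute log2 change of at least 0.5 (x axis, ordered by log2 change). The shCDK5RAP3 points lie above the shControl points for 10 genes and below them for TOMM34.

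The SAM complex and the metaxins, which fold barrel proteins such as TOMM40 into the outer membrane, showed no common direction. Of 4 tested, 1 rose (25%) and 0 fell, and the median was -0.02. That share of rises lies near the 22.7% of protein-coding genes that rose. MTX1 rose from 36.9 and 34.6 to 44.7 and 44.6 CPM, a log2 change of 0.32 (edgeR adjusted p = 0.0122), which was lost without shCDK5RAP3 replicate 1 (0.081) or replicate 2 (0.0992). SAMM50, the barrel of this complex, had 74.4 and 82.2 CPM and then 79.2 and 88.1 CPM, so the groups overlapped (log2 change 0.10, edgeR adjusted p = 0.38). MTX2 (-0.18) and MTX3 (-0.13) did not pass; MTX3 had 64.8 and 56.9 CPM and then 58.1 and 53.4 CPM. MTX2 passed downward without shControl replicate 1 (edgeR adjusted p = 0.0448). The rows of MTX1 and of its pseudogene held 4669 and 1121 counts over all libraries, and it is not known how the counting split reads between them.

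The oxidative folding relay of the intermembrane space traps small cysteine-rich proteins, among them the small TIMs, and OXA1L inserts proteins into the inner membrane from the matrix side. GFER, the oxidase that recharges the relay, rose from 35.0 and 35.3 to 44.1 and 47.9 CPM (log2 change 0.39, edgeR adjusted p = 0.0054), a call lost without shCDK5RAP3 replicate 2 (0.0867). CHCHD4, the receptor that GFER reoxidizes, had a log2 change of 0.05 and OXA1L one of 0.11, and neither passed.

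The small TIMs form ring-shaped chaperones, such as TIMM9 with TIMM10 and TIMM8A with TIMM13. Of 6 tested, 2 rose (33.3%, against 22.7% of protein-coding genes) and 4 did not pass, with a median of 0.25. TIMM8B had 67.6 and 74.8 CPM in the shControl libraries and 100.1 and 131 CPM under shCDK5RAP3, and its log2 change was 0.70 ± 0.12 (standard error; edgeR adjusted p = 0.00138). The 2 shCDK5RAP3 libraries were further apart than the lower of them was from the higher control, and the log2 change ran from 0.49 to 0.88 when single libraries were left out. TIMM8B shares 30.1% of its exon bases with NKAPD1 on the opposite strand, which rose by 0.43, and a few with SDHD, which rose by 0.59.

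TIMM10B, a small TIM bound to the TIM22 complex, rose from 41.9 and 42.7 to 61.4 and 59.4 CPM, a log2 change of 0.51 ± 0.07 (standard error; edgeR adjusted p = 0.000607). TIMM8A, the paralog of TIMM8B and the gene of deafness-dystonia syndrome, had 15.8 and 16.3 CPM and then 20.1 and 18.4 CPM, without overlap but also without passing (log2 change 0.26, edgeR adjusted p = 0.0914). TIMM13, the most abundant small TIM, had 205 and 234 CPM and then 205 and 235 CPM. Its log2 change of 0.00 changed sign under several settings. TIMM9 (-0.07) and TIMM10 (0.24) did not pass, and TIMM10 passed without shControl replicate 2 (edgeR adjusted p = 0.0213). Thus TIMM8A, TIMM9, TIMM10 and TIMM13 did not pass, and the 2 small TIMs that rose were TIMM8B and TIMM10B.

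All 3 genes of the TIM22 carrier translocase rose, where 22.7% of protein-coding genes did, with a median log2 change of 0.57. TIMM22, its channel subunit, had the lowest control CPM of the tested members, with 142 and 161 counts in the shControl libraries and 241 in both shCDK5RAP3 libraries. That is 4.91 and 5.54 CPM against 8.44 and 8.15 CPM, a log2 change of 0.67 ± 0.17 (standard error; edgeR adjusted p = 0.0121). TIMM29, an accessory subunit, rose from 23.1 and 23.8 to 34.2 and 35.7 CPM, a log2 change of 0.57 ± 0.09 (standard error; edgeR adjusted p = 0.00101). AGK, a lipid kinase that is also a subunit of this complex, went from 36.4 and 37.0 to 46.4 and 46.2 CPM (log2 change 0.34, edgeR adjusted p = 0.00801). In all 3 genes both shCDK5RAP3 libraries lay above both shControl libraries, as in 35% of all tested genes. Only TIMM29 kept its call whichever library was left out: AGK lost it without shCDK5RAP3 replicate 1 (0.0648) or 2 (0.0792), and TIMM22 without shCDK5RAP3 replicate 1 (0.0735), shCDK5RAP3 replicate 2 (0.0783) or shControl replicate 1 (0.0549).

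Of the 7 genes of the TIM23 presequence translocase 6 rose and 1 did not pass, with a median log2 change of 0.44. The rises make up 85.7%, against 22.7% of protein-coding genes. That share counts TIMM23 and its near-identical copy TIMM23B separately. TIMM50 (ENSG00000105197, chromosome 19, 39480412 to 39493785), the receptor that takes presequences over from the TOM complex, had 50.4 and 56.1 CPM under shControl and 83.4 and 86.9 CPM under shCDK5RAP3. Its log2 change was 0.68 ± 0.08 (standard error; edgeR adjusted p = 0.000168). ROMO1, a small membrane subunit of the translocase, had 61.5 and 66.7 CPM and then 90.2 and 111 CPM, a log2 change of 0.65 ± 0.10 (standard error; edgeR adjusted p = 0.000857). ROMO1 shares 12.5% of its exon bases with NFS1 on the opposite strand, and NFS1 fell by 0.95.

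The channel subunit TIMM23 had 88.2 and 95.0 CPM and then 118 and 130 CPM (log2 change 0.44, edgeR adjusted p = 0.00151). Its near-identical copy TIMM23B, also on chromosome 10, had 21.4 and 20.3 CPM and then 29.5 and 31.2 CPM (log2 change 0.54, edgeR adjusted p = 0.00195). How the counting split reads between the copies is not known, so the separate values are uncertain; counted together they had a log2 change of 0.46 (edgeR adjusted p = 0.000851). TIMM21, which couples the translocase to TOM and to the respiratory chain, rose by 0.38 (edgeR adjusted p = 0.0264). TIMM23 (0.0602), TIMM23B (0.0504) and TIMM21 (0.185) missed the threshold when shCDK5RAP3 replicate 2 was left out, and TIMM21 also without shCDK5RAP3 replicate 1 (0.0869) and shControl replicate 1 (0.115).

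TIMM17A and TIMM17B are alternative forms of the remaining core subunit, and TIMM17A is known as the stress-responsive form. TIMM17A had 64.4 and 70.5 CPM and then 79.4 and 82.4 CPM (log2 change 0.26, edgeR adjusted p = 0.0176). TIMM17B had 51.4 and 57.3 CPM and then 49.5 and 62.0 CPM, so its groups overlapped (log2 change 0.04, edgeR adjusted p = 0.819). The call of TIMM17A was lost without shControl replicate 1 (0.0766), shCDK5RAP3 replicate 1 (0.0877) or shCDK5RAP3 replicate 2 (0.174).

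The motor that pulls presequence proteins into the matrix had 2 rises among 5 tested genes, and 3 did not pass. The rises make up 40%, against 22.7% of protein-coding genes. TIMM44, which anchors the motor to the channel, rose from 70.6 and 79.9 to 96.9 and 99.4 CPM (log2 change 0.38, edgeR adjusted p = 0.00345; 0.0847 without shCDK5RAP3 replicate 2). GRPEL1, the main nucleotide exchange factor, went from 64.5 and 65.7 to 77.7 and 72.7 CPM, a log2 change of 0.21 (edgeR adjusted p = 0.0392). That call was lost whichever library was left out (edgeR adjusted p = 0.0988 and 0.0571 without shControl replicates 1 and 2, 0.247 and 0.111 without shCDK5RAP3 replicates 1 and 2). Its paralog GRPEL2 had 53.9 and 54.6 CPM and then 50.3 and 51.2 CPM, lower in both shCDK5RAP3 libraries but without passing (log2 change -0.10, edgeR adjusted p = 0.321).

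Among the J-domain proteins of the motor, DNAJC19 had 39.3 CPM in both shControl libraries and then 33.7 and 40.9 CPM under shCDK5RAP3 (log2 change -0.07, edgeR adjusted p = 0.601). Its paralog DNAJC15 had 0 counts in all 4 libraries, which allows up to 3 counts per library (counting error only). PAM16, the partner of the J-domain proteins, was uneven in both groups, with 382 and 653 counts under shControl and 621 and 939 under shCDK5RAP3. Its log2 change of 0.58 did not pass (edgeR adjusted p = 0.0815), but was 1.02 and passed without shControl replicate 2 (0.000384).

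The processing peptidases divided by subunit. PMPCA (ENSG00000165688, chromosome 9, 136410570 to 136423761) and PMPCB encode the substrate-binding and the catalytic subunit of the matrix peptidase that removes presequences, which work as a dimer. PMPCA had 65.7 and 81.1 CPM under shControl and 129 and 138 CPM under shCDK5RAP3, rising from 73.4 ± 10.9 to 133 ± 6.77 CPM (SD, n = 2 each). Its log2 change was 0.86 ± 0.10 (standard error; edgeR adjusted p = 0.000168). PMPCB had 87.1 and 86.0 CPM and then 84.1 and 88.6 CPM, with overlapping groups and a log2 change of -0.00 (edgeR adjusted p = 0.973). In IMMP1L and IMMP2L, which encode the inner membrane peptidase, counts were low. IMMP1L had 206 and 195 counts and then 190 and 256 (log2 change 0.15), and IMMP2L had 142 and 179 and then 95 and 120 (log2 change -0.58, edgeR adjusted p = 0.0556). IMMP2L passed without shControl replicate 1 (0.0301).

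TIMMDC1 carries the TIMM name but is an assembly factor of respiratory complex I. It rose from 87.2 and 91.9 to 103 and 105 CPM (log2 change 0.21, edgeR adjusted p = 0.0256), a call lost without shControl replicate 1 (0.0907), shCDK5RAP3 replicate 1 (0.113) or shCDK5RAP3 replicate 2 (0.198).

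Several members share exon bases with another annotated gene, and whether the counting used strand is not known, so their values carry that uncertainty. Beside TOMM6, TIMM8B and ROMO1, given above, those that share 13% or more of their exon bases with another gene are TIMMDC1 (29.2% with CD80), TOMM20L (27.9% with TIMM9), GFER (25.9% with AC005606.2), PAM16 (21.9% with CORO7-PAM16, which had 0 counts in 3 libraries and 6 in the fourth), TOMM40L (20.1% with NR1I3), MTX1 (17.3% with AC234582.2), TIMM13 (15.9% with TMPRSS9 and 13% with LMNB2), TIMM9 (14.9% with KIAA0586), TOMM5 (14.3% with AL138752.2), TIMM10B (13.5% with AC084337.2) and PMPCB (13% with DNAJC2). LMNB2 lies on the strand of TIMM13 and had 12381 to 14392 counts per library, with a log2 change of -0.16 (edgeR adjusted p = 0.0435). TOMM34 and TOMM40 had no such overlap, and PMPCA shared 0.6% with ENTR1. TOMM20 has 4 annotated pseudogenes, which held 680 counts against its own 52340.

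Ratios of paired members within a library do not depend on how libraries are scaled. With 2 libraries per group, an exact permutation test cannot give a two-sided p below 0.333. That value was reached for 7 of the 8 pairs with enough counts. The share among other gene pairs was not computed, but 35% of single tested genes separated the groups upward and 36.4% downward. In the peptidase pair PMPCA had 0.754 and 0.943 times the counts of PMPCB under shControl and 1.53 and 1.56 times under shCDK5RAP3; these are ratios of counts, not of levels per length. TOMM40 had 3.15 and 3.91 times the counts of TOMM40L under shControl and 6.33 and 6.20 times under shCDK5RAP3. IMMP1L had 1.45 and 1.09 times the counts of IMMP2L, and then 2.00 and 2.13 times.

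The other ratios shifted by less. GRPEL1 to GRPEL2 went from 1.20 in both shControl libraries to 1.55 and 1.42, and TIMM17A to TIMM17B from 1.25 and 1.23 to 1.60 and 1.33. MTX1 to MTX3 went from 0.569 and 0.609 to 0.770 and 0.835, and TIMM8A to TIMM8B from 0.233 and 0.218 to 0.201 and 0.141. For the copies TIMM23 and TIMM23B the ratios overlapped, at 4.13 and 4.67 and then 3.99 and 4.17 (exact permutation p = 0.667, two-sided).

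**Figure D3:**
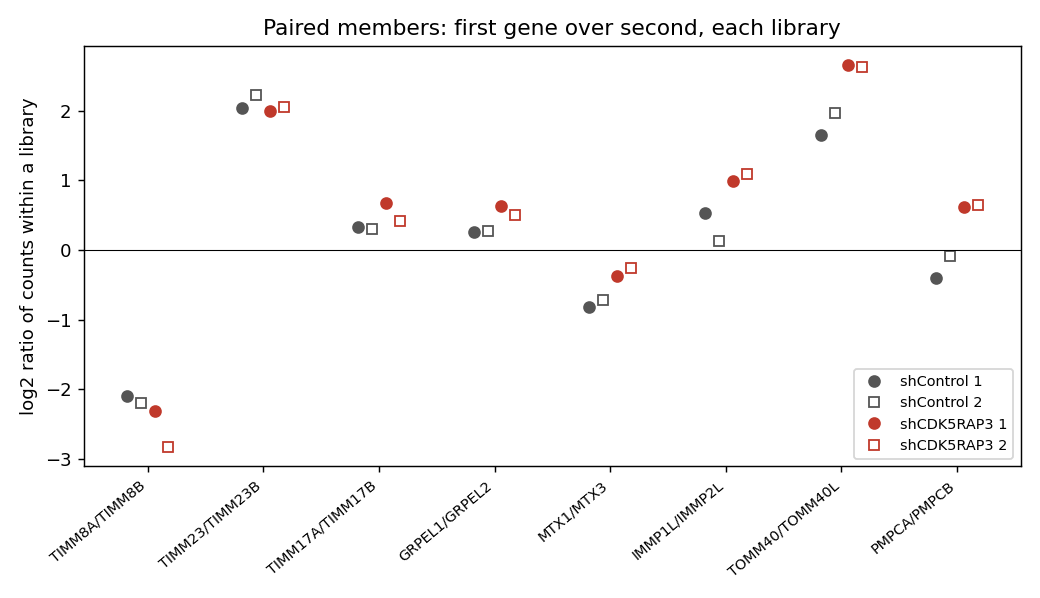
Log2 ratio of the counts of 2 paired import genes within each library (y axis), for 8 pairs on the x axis (first gene over second). The shCDK5RAP3 points lie outside the range of the shControl points for every pair but TIMM23/TIMM23B, and cross 0 only for PMPCA/PMPCB. Among single tested genes, such separation was found upward in 35% and downward in 36.4%.

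Levels can be set side by side between genes only per length. On CPM per kilobase of the exon union, the control levels were highest for TOMM6 (136 ± 33.4), TOMM20 (115 ± 0.0257) and TIMM13 (111 ± 10.3; SD, n = 2 each), and these neighbours do not differ beyond the spread of TOMM6. A second scale was CPM per kilobase of the principal transcript. Its length leaves out exons of other transcripts, but the counts are those of the whole gene. On this scale TOMM6 (136), ROMO1 (129) and TOMM20 (120) led, followed by TIMM13 (111), TOMM5 (93.2) and TIMM8B (88.4). Small subunits and the receptor TOMM20 thus stood at the top. The lowest control levels on that scale were those of TIMM22 (1.64 ± 0.139) and IMMP2L (3.64 ± 0.580), apart from TOMM20L and DNAJC15. The other TIM22 subunits ranked 31 (TIMM29, 16.5) and 36 (AGK, 9.54) of 44. For TOMM5 the length used mattered, since it had 19.2 CPM per kilobase of exon union.

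**Figure D4:**
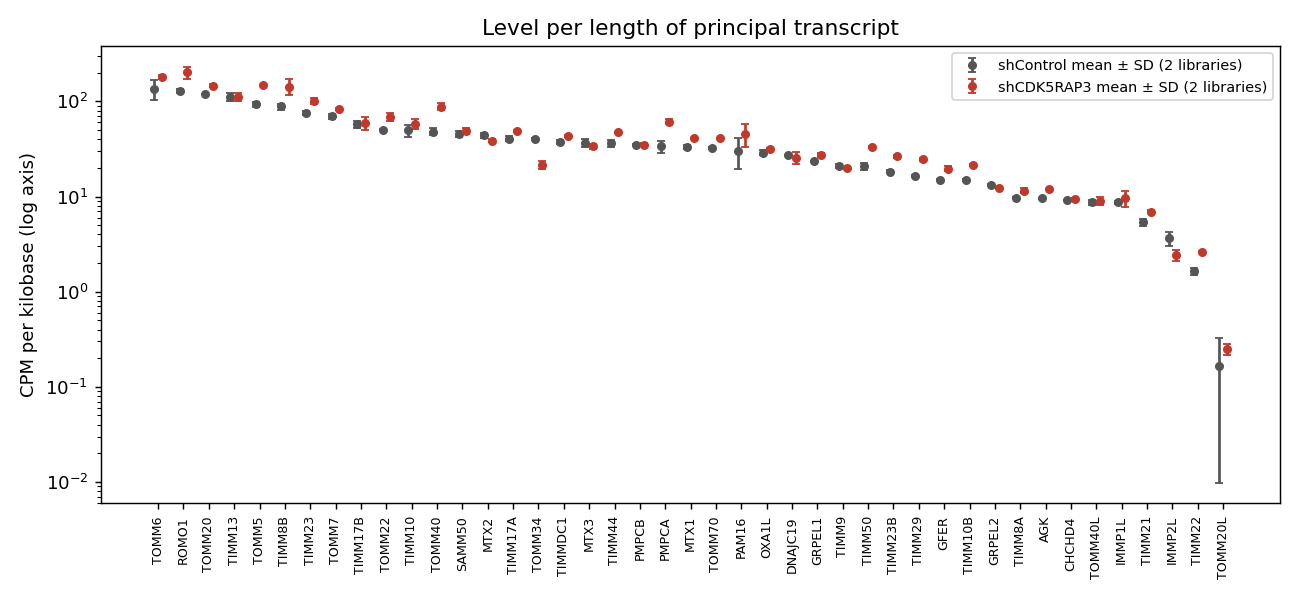
Level of 43 import genes in CPM per kilobase of principal transcript (y axis, log axis; points are means of 2 libraries, bars ± SD), ordered by the shControl mean. Control levels run from 136 for TOMM6 down to 1.64 for TIMM22 and 0.167 for TOMM20L; DNAJC15, at 0, is not drawn.

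The promoters of the 3 genes with the largest rises among those with an entry in the promoter table (TOMM40, PMPCA and TIMM50) and of TOMM34, the gene that fell, are shown to let their sequences be compared. Each is the 250 bases before the RefSeq start (GRCh38.p14), 5′ to 3′ on the gene's strand: TOMM40 on the plus strand at chr19:44891004-44891253, PMPCA on the plus strand at chr9:136410408-136410657, TIMM50 on the plus strand at chr19:39480588-39480837 and TOMM34 on the minus strand at chr20:44960398-44960647. GENCODE 29 places the outermost start of each of these 4 genes further upstream than RefSeq does, so each window lies wholly or partly inside the gene as GENCODE annotates it. Capitals mark GC boxes (GGGCGG or its reverse complement) and CCAAT boxes (CCAAT or its reverse complement).
TOMM40: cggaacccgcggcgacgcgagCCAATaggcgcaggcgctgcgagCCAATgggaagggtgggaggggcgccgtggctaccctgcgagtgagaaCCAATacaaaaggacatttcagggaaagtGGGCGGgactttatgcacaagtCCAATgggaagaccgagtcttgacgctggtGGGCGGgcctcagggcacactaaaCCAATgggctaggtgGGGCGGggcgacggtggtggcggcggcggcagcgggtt
PMPCA: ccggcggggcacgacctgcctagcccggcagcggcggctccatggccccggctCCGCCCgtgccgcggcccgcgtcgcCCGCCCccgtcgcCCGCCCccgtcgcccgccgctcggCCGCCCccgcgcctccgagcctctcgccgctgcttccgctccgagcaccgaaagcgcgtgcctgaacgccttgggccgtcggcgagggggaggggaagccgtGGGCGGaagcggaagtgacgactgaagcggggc
TIMM50: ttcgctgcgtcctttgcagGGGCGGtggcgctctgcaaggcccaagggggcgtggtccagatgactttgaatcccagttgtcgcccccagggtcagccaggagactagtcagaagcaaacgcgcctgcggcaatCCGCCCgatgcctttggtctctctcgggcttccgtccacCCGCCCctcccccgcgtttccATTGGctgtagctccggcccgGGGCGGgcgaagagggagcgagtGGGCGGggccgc
TOMM34: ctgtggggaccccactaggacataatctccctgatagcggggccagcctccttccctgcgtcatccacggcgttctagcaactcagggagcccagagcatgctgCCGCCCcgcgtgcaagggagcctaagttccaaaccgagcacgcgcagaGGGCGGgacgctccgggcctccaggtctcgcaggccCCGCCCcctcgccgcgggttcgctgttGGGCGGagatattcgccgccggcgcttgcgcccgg

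GC boxes stood in all 4 windows, with 3 in TOMM40, 5 each in PMPCA and TIMM50 and 4 in TOMM34. The TOMM40 window held 5 CCAAT boxes, starting at -229, -206, -158, -107 and -53 from the start, and only 66 of 15843 protein-coding promoters in the table (0.417%) held as many. TIMM50 held 1 CCAAT box and PMPCA and TOMM34 held none. Thus all 4 promoters shown held GC boxes, and CCAAT boxes were found in 2 of the 3 shown from genes that rose.

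Over the 41 members with an entry, GC boxes were found in 23 promoters (56.1%), against 56% of all 15843, and CCAAT boxes in 13 (31.7%), against 34.5%. The ETS word CCGGAAG, the core bound by GABP, a known regulator of nuclear genes for mitochondria, was found in 15 (36.6%), against 11.8%. These 15 include both TIMM23 and its near-identical copy TIMM23B. The word TGCGCA, a part of the site of NRF1, another such regulator, was found in 10 (24.4%), against 9.1%. Both strands were searched in the same 250 bases, and no word contains another. The 15843 promoters were not limited to genes expressed in these cells. ETS words stood in 9 of the 21 members that rose and 5 of the 17 that did not pass, and NRF1 words in 5 of 21 and 4 of 17. GC boxes stood in 12 of 21 and 10 of 17, and CCAAT boxes in 7 of 21 and 6 of 17. Each of these words was thus found on both sides of the test. The E-box CACGTG, bound by MYC family factors, was found only in TOMM20 and MTX3 (4.88%, against 7.84%), the TATA box TATAAA only in DNAJC15, the gene at 0 (2.44%, against 9.23%), and the C/EBP-ATF word TGATGCAA in TIMM22 and PMPCB (4.88%, against 0.587%). The CRE word TGACGTCA and the AP-1 word TGACTCA were found in no member (2.32% and 3.17% of all). GRPEL1, TIMM8B and TOMM5 had no entry.

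Around the import machinery, 45 other genes were listed in 5 groups, of which 16 rose, 8 fell and 21 did not pass, with a median log2 change of 0.07. Over all tested genes 19.7% rose and 21.8% fell, and the 8 falls of 45 lie near the latter share. Among protein-coding genes alone the shares were 22.7% and 26.4%. Matrix chaperones, which fold imported proteins, had 4 rises and 0 falls of 8, with HSPE1 (0.56) and DNAJA3 (0.49) the largest. HSPA9, the HSP70 that drives the import motor, is named here after its value was seen: it rose from 501 ± 5.58 CPM (SD, n = 2) under shControl to 679 ± 4.44 CPM (SD, n = 2), a log2 change of 0.44 (edgeR adjusted p = 0.00025). Other processing and quality-control proteases had 4 rises and 0 falls of 11, led by XPNPEP3 (0.84), which trims imported proteins after the matrix peptidase, and the matrix protease LONP1 (0.68).

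The remaining groups had both rises and falls. Genes of cristae organisation had 2 rises and 2 falls of 9, near the shares over all genes, with DNAJC11 (0.47) up and MICOS13 (-0.39) down. Genes for insertion into and extraction from the outer membrane had 4 rises and 2 falls of 8. The ubiquitin ligase MARCHF5 rose by 0.54. PINK1, a kinase that marks damaged mitochondria, had a log2 change of -0.84 (edgeR adjusted p = 0.000252). It went from 37.8 ± 0.503 CPM under shControl to 21.0 ± 2.31 CPM under shCDK5RAP3 (SD, both n = 2). Genes of inner membrane insertion and assembly had 2 rises and 4 falls of 9. The largest changes were the falls of CHCHD10 (-0.92) and the serine carrier paralog SFXN3 (-0.82). The 2 rises were those of CHCHD2 (0.61) and SFXN1 (0.49).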

How the data were processed

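RNA was measured in 2 shControl and 2 shCDK5RAP3 libraries. The authors deposited whole-number counts per Ensembl gene, not scaled between libraries; HISAT2 2.2.0, StringTie and hg38 are named in the submitters' processing notes with no roles. The annotation, strand setting and treatment of reads with several matches were not stated in these sources, so overlapping and copied genes are uncertain.

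Identifiers were matched to GENCODE 29 (GRCh38), 56591 of 64252 rows; rows without a match stayed in, and library sizes were summed again over the rows that passed the filter. edgeR 4.0.16 (R 4.3.3) was run on all 4 libraries with TMM factors, its default filter (18775 genes kept), the quasi-likelihood fit and test, and Benjamini-Hochberg adjustment over all tested genes at 0.05. CPM values use TMM-scaled library sizes, and standard errors are the log2 change over the root of F. The test was run on simulated data with planted changes. Members, lists and pairs were chosen with earlier results of these data known. Values per library are given for members past the test with an absolute log2 change of at least 0.5 and for paired members. They are also given for the 3 highest levels per length and for some other members. From each list of other genes the 2 largest changes past the test are named. HSPA9, CHCHD2 and SFXN1 were added after their values were seen. Alternatives were other scaling factors, filters, limma-trend (limma 3.58.1), DESeq2 1.42.0, a robust fit, a replicate block and each library left out. The principal transcript length, the sums of TOMM6 with AL365205.1 and of TIMM23 with TIMM23B, and the promoter words were chosen after seeing the data.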

Additional observations from a re-analysis of the deposited data

How the results depend on the processing

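The median log2 change of the tested members was 0.28 and stayed positive under every alternative run. It was 0.247 by library size alone and 0.307 with upper-quartile factors, and 0.244 to 0.330 with each library left out. The count of members that rose was 24; it was 13 without a filter on low counts, where 4488 genes in all passed (1966 higher, 2522 lower), and 8 to 24 with each library left out. The count that fell was 1; with 23.2% of all genes lower, it was 2 by library size alone, and 1 to 3 with each library left out. Over all genes, 3752 to 7329 passed with a library left out, 1556 to 3516 higher and 2196 to 3813 lower. A lone library left in a group is assumed to vary like the other group. With replicate number as a block, 26 members rose and 3 fell (23.6% and 25.1% of all genes): all 25 calls were kept and those of IMMP2L, MTX2, PAM16 (adjusted p = 6.58e-05) and TIMM10 were added. Same-numbered libraries deviated together with a correlation of 0.147 over 13893 genes, but share only a number in the labels. DESeq2 called 21 members (33.8% of all genes), without GRPEL1, TIMM21, TIMMDC1 and TOMM7; the robust fit lost TOMM6. The 7 members called in every fit run were PMPCA, TIMM10B, TIMM29, TIMM50, TOMM34, TOMM40 and TOMM5.

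Changes of sign were seen only in members that passed under neither setting. PMPCB (-0.003) was at 0.00607 with RLE factors, 0.0284 with upper-quartile factors and 0.00089 with the CPM filter, and TIMM13 (0.005) at -0.0249 by library size, -0.0048 without a filter and -0.00027 with DESeq2. With each library left out, log2 changes ran from -0.0453 to 0.0434 for PMPCB, -0.0991 to 0.108 for TIMM13, -0.138 to 0.198 for TIMM17B, -0.0617 to 0.151 for TOMM40L, -0.225 to 0.0664 for DNAJC19 and -0.0588 to 0.333 for IMMP1L. The cause of these shifts was not tested. Summed counts moved no paired ratio by more than its spread between replicates. Standard errors were widest for PAM16 (0.24), IMMP2L (0.21), IMMP1L (0.18) and TIMM22 (0.17); the last 3 had the lowest counts of the tested members.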
